A study of Mus musculus with 6 samples.

Results

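The MS4A family is a set of small membrane proteins that cross the cell membrane several times. Its best known member is CD20 (Ms4a1), the surface antigen of B cells, and Ms4a2 encodes the β chain of the high-affinity IgE receptor of mast cells. Other members mark T cells or macrophages, where they sit beside signalling receptors and tune their output. MS4A4B, for example, is a surface protein of mouse T cells that associates with the costimulatory receptor GITR, and MS4A7 is a marker of macrophages.

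The 7 members followed here come from 19937 genes on the array. In this report 3 are grouped as T cell genes (Ms4a4b, Ms4a4c and Ms4a6b) and 4 as macrophage genes (Ms4a4d, Ms4a6c, Ms4a6d and Ms4a7). The grouping came with the choice of members, and whether each gene is confined to a single cell type was not tested. The members were picked by gene symbol from the 19 MS4A genes with a row, with earlier results of these data known. Their differences are thus descriptions, and their count is no independent evidence about the family. Each member had 1 row on the array. The row of a gene with several rows would have been the one with the highest mean over the arrays, so levels were used to choose rows and are not compared between genes.

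The arrays hold RNA of CD4+ TCRβ+ CD25+ cells, the regulatory T cell (Treg) gate, from C57BL/6 mice aged 6 to 8 weeks, with peripheral lymph nodes and spleen as the tissue. T cells of wild-type mice had been moved into recipients without CD3ε, which make no T cells of their own but keep other blood cells. The recipients of 1 group had MHC class II (competent, 3 arrays) and those of the other lacked both CD3ε and MHC class II (deficient, 3 arrays), and cells were taken on day 5. The labels call the 3 arrays of a group biological replicates but do not give the number of mice behind each. A p-value here thus reflects how far the 3 preparations of a group vary, with that spread partly pooled over all tested genes. The values are log2 intensities, and differences are deficient minus competent. The comparison asks how MS4A transcripts of the sorted cells differ after 5 days without MHC class II in the host.

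As a check on the sort, Foxp3, the transcription factor of Tregs, stood between 9.68 and 9.88 in the 6 arrays and Cd3e between 11.08 and 11.27. The 10 tested T cell and Treg markers had a median difference of -0.20, with 0 past limma's threshold and 3 at an unadjusted p under 0.05. All 10 lay below 0, and for 6 of them the deficient arrays were lower with no overlap, as for 12.9% of all tested genes. Il2ra, which encodes CD25, read 11.28, 11.59 and 11.30 against 11.14, 11.11 and 11.11 (-0.27, SE 0.11, limma adjusted p = 0.22). Macrophage markers were present as well. Of 20 tested, 19 lay higher in the deficient group, as did 54.0% of all tested genes, with a median of 0.90. Past the threshold and higher were 2, against 1.34% of all. An unadjusted limma p under 0.05, in either direction, was found for 17 of the 20, against 2842 of the 15037 tested genes. The deficient arrays were higher with no overlap for 7 of the 20, as for 11.4% of all, and lower with no overlap for 1. The mean of the 20 was 5.87 to 6.75 in the competent and 6.78 to 7.67 in the deficient arrays, so the groups nearly touched but did not overlap. In bulk RNA more cells of a type and more RNA per cell cannot be told apart.

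The T cell pair Ms4a4b and Ms4a4c lie near each other and moved unequally between the groups, and Ms4a6b and Ms4a6c are a similar pair that spans the T cell and the macrophage set. Their RefSeq promoters (GRCm38.p6, plus strand) are shown to let the pairs be compared. Each line gives the 150 bases before the annotated start, and capitals mark bases that differ from, or have no partner in, the paired gene in a local alignment of the 300-base windows. Ms4a4b lies at chr19:11443408-11443557, Ms4a4c at chr19:11407511-11407660, Ms4a6b at chr19:11518409-11518558 and Ms4a6c at chr19:11469218-11469367.
Ms4a4b: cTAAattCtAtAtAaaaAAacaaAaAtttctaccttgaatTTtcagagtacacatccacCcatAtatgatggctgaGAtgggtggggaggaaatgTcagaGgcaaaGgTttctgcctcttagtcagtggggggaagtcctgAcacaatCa
Ms4a4c: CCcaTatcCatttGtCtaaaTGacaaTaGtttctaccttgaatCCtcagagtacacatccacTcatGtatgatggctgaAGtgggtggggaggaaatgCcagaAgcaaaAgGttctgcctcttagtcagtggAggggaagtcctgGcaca
Ms4a6b: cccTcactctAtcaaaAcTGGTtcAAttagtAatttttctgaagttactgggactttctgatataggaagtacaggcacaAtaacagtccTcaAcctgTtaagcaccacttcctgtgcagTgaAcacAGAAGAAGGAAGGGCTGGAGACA
Ms4a6c: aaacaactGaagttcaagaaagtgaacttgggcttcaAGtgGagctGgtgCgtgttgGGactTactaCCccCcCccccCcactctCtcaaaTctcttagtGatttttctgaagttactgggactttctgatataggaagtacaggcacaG

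The windows of Ms4a4b and Ms4a4c aligned over 301 columns with 229 identical bases (76.1%) and a longest shared run of 20 bases. Those of Ms4a6b and Ms4a6c aligned over 234 columns with 193 identical bases (82.5%) and a shared run of 48 bases, which lies nearer to the start in Ms4a6c. The other 13 pairs of members shared runs of 7 to 13 bases. The core of the interferon-stimulated response element (ISRE), GAAANNGAAA, was searched on both strands. It was in 1131 of all 32851 promoter windows (3.44%) and in a window of 12 of the 21 interferon-stimulated genes that had one. None of the 7 windows of 6 members held it, nor the interferon-gamma element core TTCNNNGAA (8.30% of all windows) or the site GAGGAAGT of the myeloid factor PU.1 (3.20%). Only these exact letters were searched, so their absence says nothing of sites with other letters or of sites elsewhere. Ms4a6d had no window in the table.

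Among the T cell members, Ms4a4c rose and the others did not pass the test. Ms4a4c (row 10461594) read 7.92, 8.42 and 8.16 in the competent arrays and 9.91, 9.72 and 9.96 in the deficient arrays. The lowest deficient array lay 1.29 above the highest competent one. The group means were 8.17 ± 0.25 and 9.86 ± 0.13 (SD, n = 3), a 3.24-fold increase (log2 1.70, SE 0.14, 95% interval 1.39 to 2.01, limma adjusted p = 0.00065). Of the genes tested, 0.0599% had a larger increase.

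Ms4a4b (row 10461605), the GITR partner, read 9.14, 9.68 and 9.46 against 9.97, 9.71 and 9.87. The groups touched closely, with competent 2 only 0.030 below deficient 2. The log2 difference was 0.42 (SE 0.14, interval 0.10 to 0.75) and limma's adjusted p was 0.15, and the difference was 0.28 without competent 1. Ms4a6b (row 10461622), also reported at the surface of T cells and Tregs, read 11.82, 12.02 and 11.78 against 12.03, 11.98 and 12.06. The groups overlapped at competent 2, without which the difference was 0.22. With all arrays it was 0.15 (SE 0.10, interval -0.08 to 0.37, limma adjusted p = 0.47), so the interval leaves room for a change of up to 0.37 on the log2 scale.

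Ms4a4c and Ms4a4b moved unequally within each array. Ms4a4c minus Ms4a4b was -1.22, -1.26 and -1.30 in the competent arrays and -0.060, 0.0087 and 0.095 in the deficient arrays. The gap thus shifted by 1.27 between the groups, against SDs of 0.040 and 0.078 within them. Competent 1 was the lowest of its group for both genes but not for the gap. This shift is a description, since the pair was chosen with its values known.

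Of the macrophage members, Ms4a6d rose, and the others did not pass or were not tested. Ms4a6d (row 10466210) read 6.40, 6.62 and 6.55 in the competent arrays and 7.37, 6.99 and 6.94 in the deficient arrays. Every deficient array lay above every competent one, and deficient 1 stood highest. The group means were 6.52 ± 0.11 and 7.10 ± 0.23 (SD, n = 3), a 1.49-fold difference (log2 0.58, SE 0.13, interval 0.29 to 0.87, limma adjusted p = 0.047). That call is marginal: it ended without any single array (adjusted p from 0.058 to 0.14) and with no filter on low values (0.052).

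Ms4a6c (row 10461614) had a larger difference than Ms4a6d but more spread. It read 8.37, 9.02 and 8.78 against 9.34, 9.06 and 9.64, and competent 2 lay only 0.037 under deficient 2. The difference was 0.62 (SE 0.19, interval 0.20 to 1.04, limma adjusted p = 0.11). Ms4a4d (row 10461629) read 5.46, 5.22 and 5.48 against 5.63, 5.54 and 5.74. These values do not overlap but lie close to the filter at 5.205, and the difference of 0.25 (SE 0.11, interval 0.01 to 0.49) did not pass (limma adjusted p = 0.25).

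Ms4a7 (row 10466200), the macrophage marker of the set, had a mean of 5.203, just under that filter, and was not tested with the others. It read 5.06, 5.65 and 4.70 in the competent and 5.68, 5.27 and 4.85 in the deficient arrays. The groups overlapped over almost their whole range. In a fit with no filter the difference was 0.13 (SE 0.25, interval -0.44 to 0.70, limma adjusted p = 0.85).

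**Figure D1:**
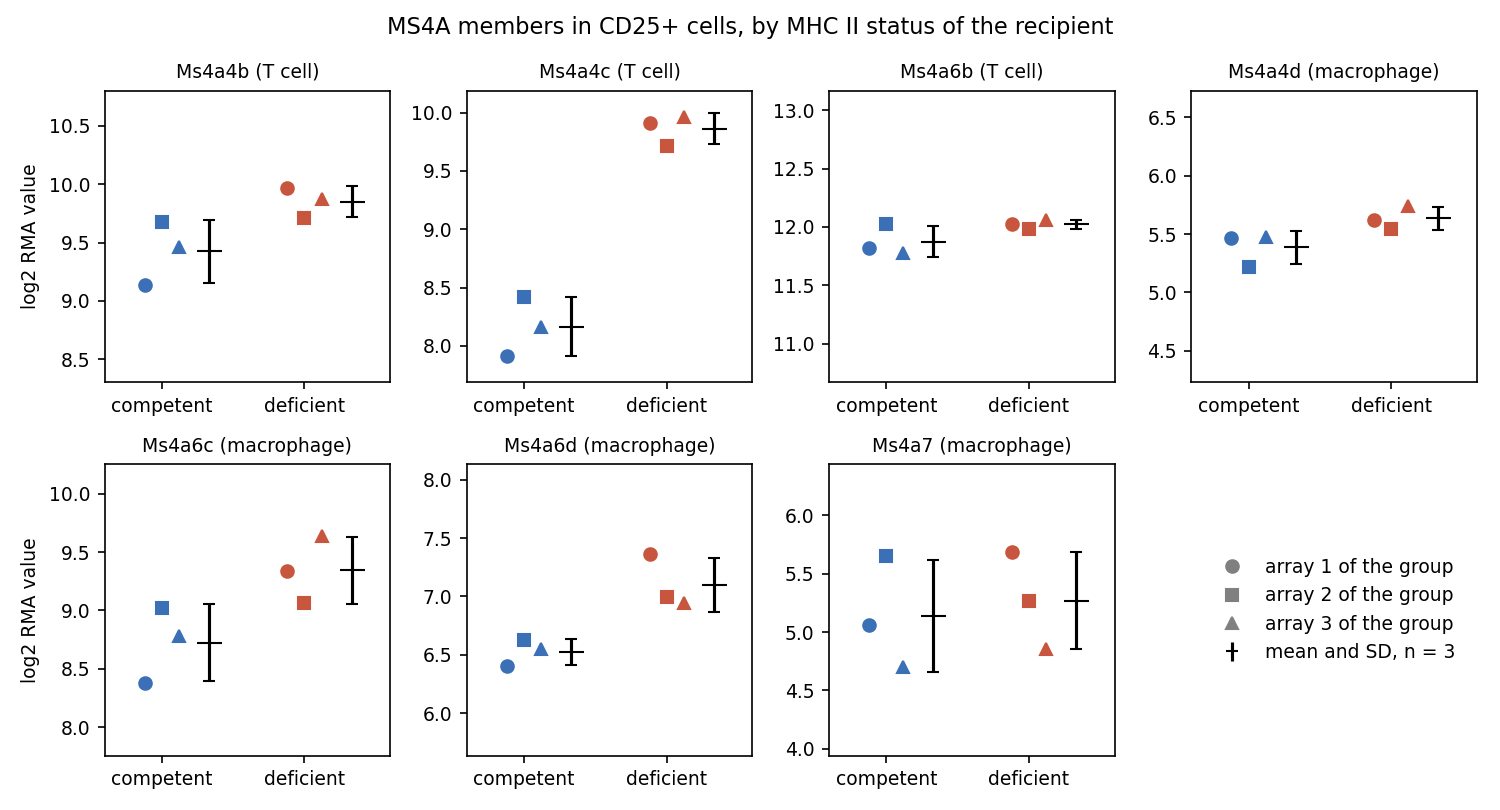
Log2 values of the 7 members in the 3 competent and 3 deficient arrays, with the mean and SD beside each group. All panels span the same log2 range, but the levels of different genes are not comparable. Ms4a4c shows the wide separation of the groups (8.17 against 9.86), Ms4a6d a smaller one, and Ms4a7 overlapping groups.

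In all, 2 of the 6 tested members were past the threshold, both higher, where 1.34% of the 15037 tested genes were called higher, 2.03% lower and 3.37% in either direction. The groups did not overlap for 5 of the 6, with the deficient arrays higher in each, against 11.4% of all tested genes (12.9% lower, 24.3% in either direction). All 6 differences lay above 0, as did 54.0% of all. The median difference was 0.50, against 0.02 over all tested genes. Nothing is read from these shares, since the members were drawn up with the differences known.

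Taken as sets, the T cell members had the larger mean difference, and 1 gene made it so. With each gene centred on its mean, the 3 T cell members averaged a difference of 0.76 and the 3 tested macrophage members 0.48. The gap between the sets was -0.20, 0.0047 and -0.21 in the competent arrays and 0.11, 0.19 and 0.11 in the deficient arrays, a shift of 0.27. It rested on Ms4a4c. Without that gene, a choice made with its value in view, the shift turned to -0.20, so that the mean difference of the macrophage members was then the larger one. Within the deficient group the arrays ranked alike, from deficient 3 down to deficient 2, for Ms4a4c, Ms4a6b, Ms4a4d and Ms4a6c, which mixes both sets.

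Some members ordered the arrays within a group as the macrophage markers did. With 3 arrays in a group an order is easily shared by chance, so nothing is read from these matches. The mean of the markers ranked the arrays competent 2, 1, 3 and deficient 1, 2, 3 from high to low. Ms4a7 had the same order in both groups, Ms4a6d in the deficient group and Ms4a6b, a T cell member, in the competent group. Ms4a4b, Ms4a4c, Ms4a6c and Ms4a4d had it in neither. Adgre1, the F4/80 gene, read 5.98, 6.54 and 5.53 against 7.97, 7.30 and 6.94, and its difference of 1.39 (SE 0.29) was past limma's threshold (adjusted p = 0.035). The other marker past it was Ly86, named after its values were seen (1.18, SE 0.26, adjusted p = 0.043). Csf1r, the receptor for the macrophage growth factor (0.89, SE 0.33), the complement gene C1qa (1.36, SE 0.39), Mertk, a receptor for apoptotic cells (0.77, SE 0.32), and Fcgr1, an Fc receptor (0.26, SE 0.18), did not pass. With the mean of the 20 markers as a covariate, 52 genes were called over all, against 507 without it. The SE of every tested member was larger in that fit. Ms4a4c stood at 1.63 (SE 0.22, limma adjusted p = 0.026) and Ms4a6d at 0.34 (SE 0.19, adjusted p = 0.43). Ms4a4b then stood at 0.30, Ms4a6b at 0.05, Ms4a4d at 0.42 and Ms4a6c at 0.69, none of them past the threshold. The marker mean itself differed between the groups with no overlap. In this fit the part of the markers cannot be told apart from the group, for any member.

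**Figure D2:**
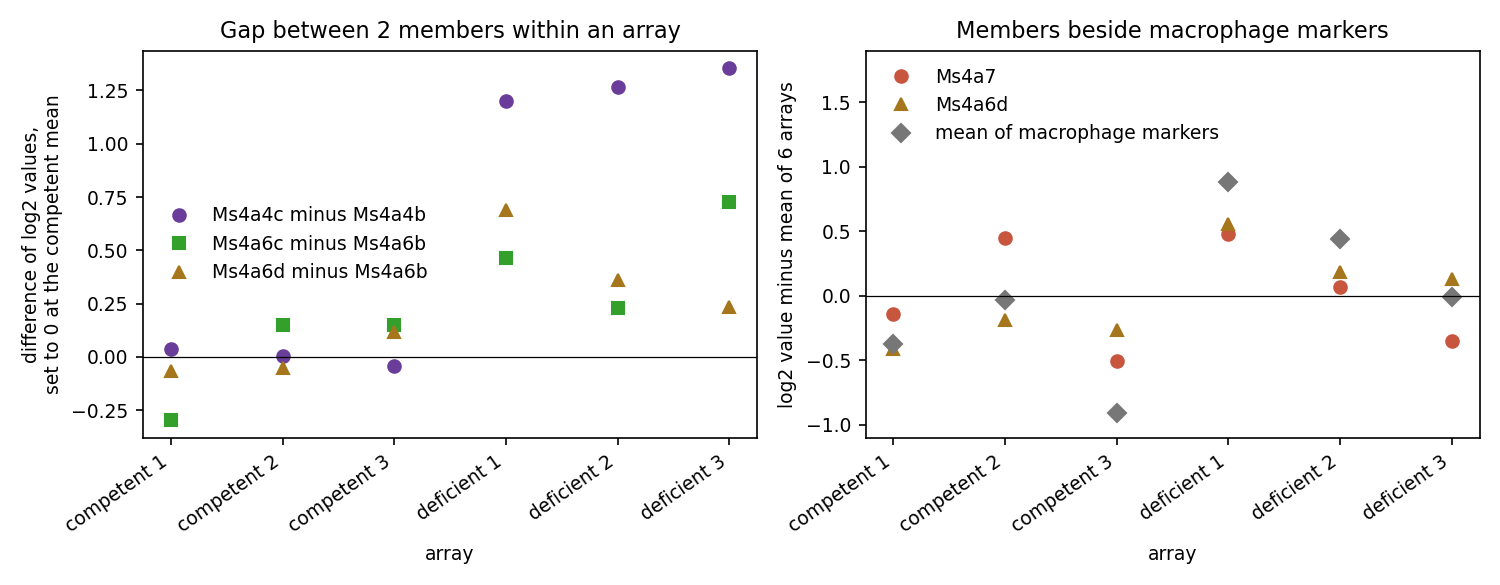
Left, difference of log2 values between 2 members in each of the 6 arrays, set to 0 at the competent mean. Right, log2 values of Ms4a7, Ms4a6d and the mean of 20 macrophage markers, each minus its mean over the 6 arrays. The Ms4a4c minus Ms4a4b gap is tight within groups and shifted by 1.27 between them. Ms4a7, whose groups overlap, ranks the arrays of each group as the macrophage markers do, an order easily shared by chance.

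The other 12 MS4A genes with a row showed no call. Only Ms4a10, Ms4a15 and Ms4a8a were tested, and their differences were 0.11 (SE 0.12), 0.06 (SE 0.14) and 0.05 (SE 0.13), with overlapping groups. The remaining 9 had means under the filter, from 3.10 for Ms4a19 to 5.05 for Ms4a3. Ms4a1, the B cell antigen, read 4.36, 4.39 and 4.50 against 4.61, 4.97 and 4.71 (0.35, SE 0.11, in the fit with no filter). Its groups did not overlap, but at such signals a size is uncertain. The B cell marker Cd79a read 5.65, 5.02 and 5.03 against 5.65, 5.80 and 5.64 (0.46, SE 0.16), and Pax5 differed by 0.02 (SE 0.13). Neither passed. Of the 6 tested B cell markers 5 lay above 0, with a median of 0.14, and 1 was past the threshold. That was Bank1, a B cell scaffold protein gene, which read 6.46, 6.23 and 5.66 against 7.44, 7.41 and 6.69 (1.06, SE 0.24, limma adjusted p = 0.047). Cd79b, which encodes the partner of Cd79a in the B cell receptor, lay below 0 with groups that did not overlap (-0.39, SE 0.13, adjusted p = 0.14). Bank1 and Cd79b were picked out after their values were seen, and the part of B cell RNA in the members' differences was not tested.

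Ms4a2, the IgE receptor chain, read 4.24 to 4.40 in the competent and 4.34 to 4.69 in the deficient arrays, with overlapping groups. The mast cell genes Fcer1a and Cpa3 also lay under the filter, with means of 3.64 and 4.21. Ms4a3, a gene of granulocyte and monocyte progenitors, read 5.11, 5.12 and 5.24 against 4.86, 5.00 and 4.94 (-0.22, SE 0.09). Its groups did not overlap, with the deficient arrays lower. Ms4a4a, a macrophage gene, differed by 0.29 (SE 0.14), with deficient 3 highest at 4.58. Ms4a5, Ms4a12, Ms4a13, Ms4a19 and Ms4a20 lay between -0.04 and 0.05. The related membrane genes Tmem176a (-0.25, SE 0.12) and Tmem176b (-0.09, SE 0.21) did not pass either. Ms4a14 and Ms4a18 were not analysed here.

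The 21 MS4A genes of the RefSeq table lie side by side on chromosome 19, with 11 other genes among them. All 7 members fall in a stretch of 13 consecutive genes from Ms4a7 to Ms4a6d. The called members are not adjacent. Ms4a4c is followed by a pseudogene, Ms4a4b and Ms4a6c, and Ms4a6d closes the stretch. The 1 other gene within the cluster with a row, the long noncoding RNA gene AW112010, had a difference of -0.30 (SE 0.12, limma adjusted p = 0.22), opposite in sign to all tested members. Of the flanking genes, Ccdc86 stood at -0.40 (SE 0.16), Ptgdr2, a prostaglandin receptor gene, at 0.26 (SE 0.10) and Zp1, an egg coat gene, at 0.10 (SE 0.10), none past the threshold. The egg-related genes Oosp2 and Oosp1 lay under the filter.

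**Figure D3:**
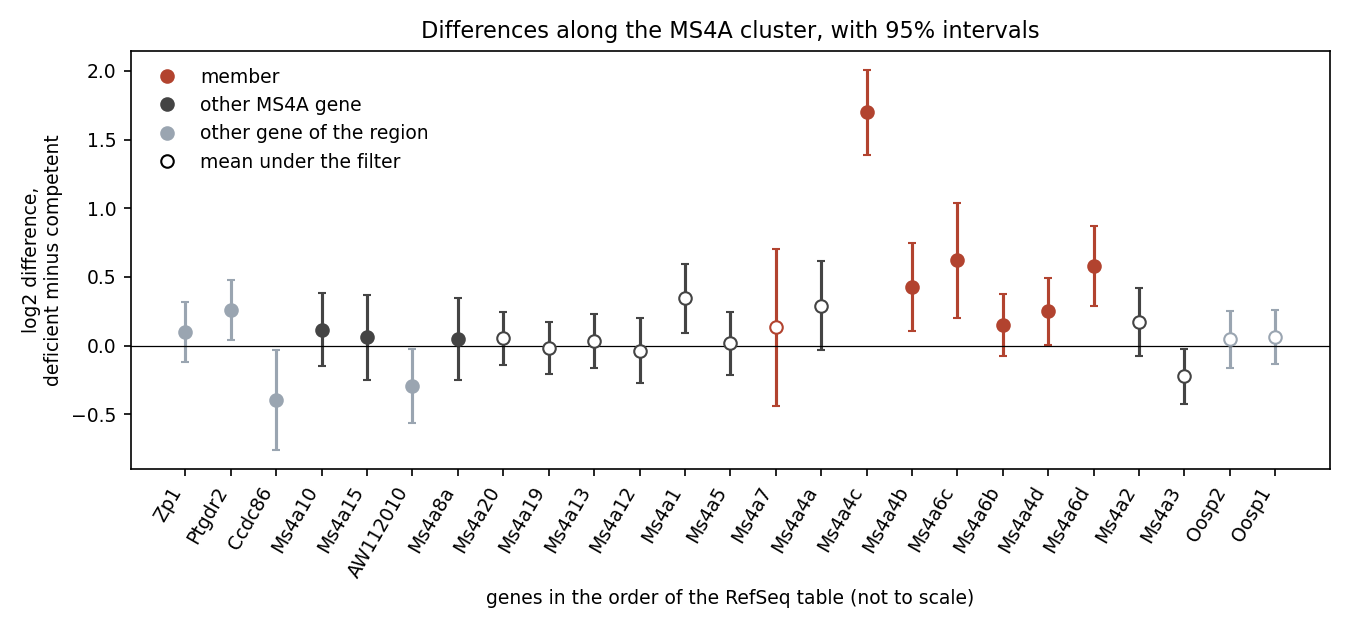
Log2 difference, deficient minus competent, with its 95% interval from limma, for each gene with a row along the MS4A cluster and its flanks, in chromosomal order and not to scale. Open symbols have means under the filter and come from the fit with no filter. Ms4a4c at 1.70 stands above its neighbours, and both AW112010 and Ccdc86 lie below 0.

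The genes with the profile nearest to each member were sought over the 6 arrays among 15028 tested genes outside the family, as the root mean square (RMS) distance after centring each gene on its mean. For Ms4a4c they were Rnf213, a ubiquitin ligase gene (distance 0.11), Ddx60, an RNA helicase gene (0.11), Ifit3, an antiviral gene (0.17), Slamf7, a receptor gene of the SLAM family (0.19), and Ifit1, another antiviral gene (0.21). Their differences ran from 1.45 to 1.65, close to that of Ms4a4c because they were chosen by distance over these same arrays. Of these 5, Ddx60, Ifit3 and Ifit1 belong to the list of interferon-stimulated genes, drawn up with earlier results of these data known. Of its 26 tested genes, 25 were called higher, against 1.34% of all tested genes, with a median difference of 1.02. Ifit1 read 8.50, 8.44 and 8.54 against 10.11, 9.71 and 10.02, and Irf7, an interferon regulatory factor gene, rose by 1.78 (SE 0.15, limma adjusted p = 0.00085). Isg15 was not analysed here.

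**Figure D4:**
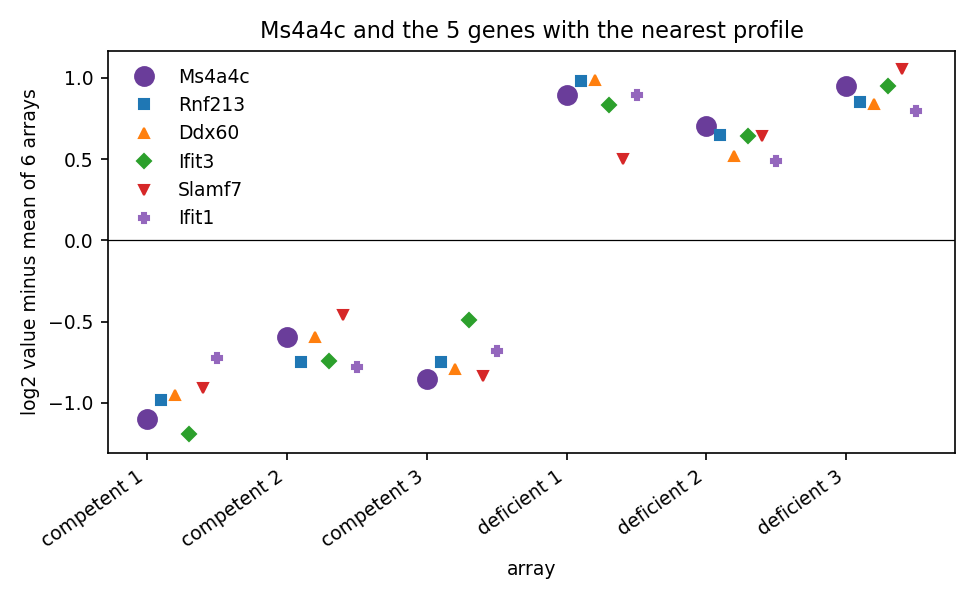
Log2 value minus the mean over the 6 arrays for Ms4a4c and the 5 genes with the smallest RMS distance to it, by array. All 6 genes lie below 0 in the 3 competent arrays and above 0 in the 3 deficient arrays. The 5 genes were chosen by their values in these same arrays, so the shared pattern follows from the choice.

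For Ms4a4c, 0 genes lay within an RMS distance of 0.1. Ms4a4b was nearest to Rictor, a subunit gene of the kinase complex mTORC2 (0.046), then Zfp715, Olfr856-ps1, Mga and Tasor2, and 21 genes lay within that distance. Ms4a6c was nearest to Cryba1 (0.085), Trim12a, Inka1, Thoc2l and Slc15a2, with 1 gene within 0.1. Ms4a6d was nearest to Dpp4, which encodes the T cell surface peptidase CD26 (0.065), then Fxyd4, Nfkbiz, Lyst and Il7r, the interleukin-7 receptor gene. In all, 8 genes lay within 0.1 of Ms4a6d. Ms4a6b (Sik1, Vps13b, Eif2ak4, Rsbn1 and Esyt2) and Ms4a4d (Cc2d1a, Cnn3, Cdk16, Trem2 and Tmc4) had 804 and 701 genes within 0.1, so their small differences single out no gene. Among the members themselves, Ms4a4b and Ms4a6d were nearest (0.15), a T cell and a macrophage member, and Ms4a4c and Ms4a6b farthest (0.78).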

How the data were processed

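The submitters' processing notes name affy and RMA (robust multi-array averaging, which sets arrays to a common distribution), and the deposited values are 1 log2 intensity per array for each of 28101 rows. The log base is not stated and was taken as 2. Versions, annotation and build are not given in the sources used here. Array medians lay between 6.11 and 6.25. Of the rows, 21640 had 1 gene symbol, 1321 several and 5140 none, from the platform annotation. Symbols were updated by Entrez identifier from a GRCm38.p6 gene table for 21553 rows. Each of 19937 genes kept its row with the highest mean, and 4900 genes with a mean under 5.205, the 25th percentile of gene rows, were left out, leaving 15037. Rows of close family copies can bind each other's transcripts, so values of Ms4a4b, Ms4a4c, Ms4a6b, Ms4a6c and Ms4a6d may include signal of a copy.

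The groups were compared in R 4.3.3 and its package limma 3.58.1 (functions lmFit and eBayes, two-sided, no covariate, 4 residual degrees of freedom). The eBayes step pools variance over genes, so tests and intervals used 9.40 degrees of freedom. Benjamini-Hochberg adjustment ran over all tested genes, with a threshold of 0.05. The fit was tested on simulated data, with the spreads of these arrays shuffled over genes. It recovered 14 of 50 changes of 0.5 on the log2 scale and 41 of 50 changes of 1. A gene that did not pass may therefore still have changed. Group values are means with SD, and differences carry limma's SE. Members and lists were chosen with earlier results of these data known. The text names the 7 members, the other MS4A genes, the genes next to them on the chromosome, the 5 tested genes nearest to each tested member by RMS distance, and defining markers. The number of arrays, 3 per group, limits the precision.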

Additional observations from a re-analysis of the deposited data

How the results depend on the processing

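Ms4a4c stayed past the threshold in all 15 alternatives, with differences from 1.57 to 1.83. Ms4a4b, Ms4a6b and Ms4a6c passed in 0 of 15 and Ms4a4d in 0 of the 14 that tested it, each with a difference above 0. Ms4a6d kept its direction in 15 and passed in 4. The count of called members, 2, was 1 with quantile normalization (Ms4a6d adjusted p = 0.069), median centring (0.082), no filter (0.052), the macrophage marker score as a covariate (0.43) and without each single array. The labels do not say whether arrays with the same replicate number were paired. Deviations of same-numbered arrays correlated at -0.02, -0.14 and 0.07 over genes, and 1 of 3 numbers had its own partner as the best match. With 3 arrays per group these values cannot show whether a pairing existed. With the replicate number as a block, 1 member (Ms4a6d adjusted p = 0.053) and 564 genes were called. Over all genes, 507 were called, from 159 to 708 with 1 array left out and 52 with the marker covariate. The shift between T cell and macrophage members, 0.27, was 0.36 with no filter, which adds Ms4a7, and 0.34 with quantile normalization. Without single arrays it ran from 0.24 to 0.35. It was 0.16 with a filter at the median, which drops Ms4a4d, 0.18 with the covariate and -0.20 without Ms4a4c. For the covariate the cause was not tested. Signals near the filter limit what can be said of Ms4a7, Ms4a4d and Ms4a1.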
